A study of Homo sapiens with 4 samples.

Results

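The surface antigens of myeloma cells that immunotherapy is aimed at were described in H929 cells with and without meayamicin B through 10 genes: TNFRSF17, SLAMF7, CD38, SDC1, GPRC5D, FCRL5, TNFRSF13B, CD48, LY9 and CD47. They were chosen by name as targets, or candidate targets, of antibodies, bispecific antibodies or engineered T cells in myeloma, and each was taken from the array row whose annotation names that gene alone. All 10 had 1 such row, among 33616 genes with a row of their own. H929 is an established human multiple myeloma cell line, so every array came from the same line. The 2 treated samples received meayamicin B at 3 nM for 8 h, and the 2 untreated samples carry the same time in their labels, which name no vehicle. Total RNA was hybridised to whole-transcript arrays, and the values are the authors' log2 signals after robust multi-array averaging (RMA).

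Meayamicin B is an inhibitor of pre-mRNA splicing that acts on SF3B1, a spliceosome subunit needed to choose branch points. Surface antigens of plasma cells are reached by immunotherapy from outside the cell, so the amount of antigen on the membrane is a property that such agents depend on. The arrays measure RNA of whole genes and give neither protein on the membrane nor the isoforms of a gene.

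An array was counted as above background for a gene when its signal exceeded the 95th percentile of 612 negative control rows on the same array. A gene was counted as above background when both arrays of either group were. That background was 5.03 and 5.13 in the treated arrays and 4.50 and 4.76 in the untreated arrays, so it was higher with treatment. Of all genes, 14296 were above background, 12398 of them in all 4 arrays. A gene could thus enter through the untreated arrays at a lower signal, and the part of this in shares over these genes was not tested. Of the 10 antigen genes, 9 were above background in all 4 arrays and TNFRSF13B in none. The cell type was checked on 8 further plasma cell genes, among them JCHAIN, MZB1, XBP1, IRF4 and PRDM1, and all 8 were above background in every array. Of the B cell markers, 5 of 8 measured were above background, with CD79B, CD79A, PAX5 and FCER2 above it in all 4 arrays, while MS4A1 (CD20) was below it in all 4. Of the T cell markers 2 of 8 were above background, CD3E and CD5, of the monocyte markers 2 of 8, of the natural killer markers 3 of 6 and of the erythroid markers 2 of 4. The T cell genes CD3D and CD3G were below background in all 4 arrays and CD14, which marks monocytes, in 3 of 4. CD3E was above it in all 4, at 8.51 and 8.63 in treated cells, against 8.29 and 8.26 in untreated cells. Spike-in controls (thr, dap and phe) exceeded the background on the replicate 1 array of each group and stayed below it on the replicate 2 array. A further control, lys, was at 4.58 and 2.25 on the treated arrays, below background on both, and at 5.27 and 2.23 on the untreated arrays, above it on the replicate 1 array.

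The signals of the antigen genes ranged from near the middle of all genes to the top. CD48 had the highest signal, at 11.95 and 11.99 with meayamicin B and 12.16 and 12.07 untreated, which put it at percentile 99.6 of all genes in both groups. TNFRSF17 and GPRC5D followed, at percentiles 99.3 and 99.1 in treated cells and 99.5 and 99.2 in untreated cells. LY9 stood near percentile 85.4 in treated cells and 84.1 in untreated cells, and FCRL5 near 66.5 and 67.4. In treated cells the order of mean signals from high to low was CD48, TNFRSF17, GPRC5D, CD38, SLAMF7, SDC1, CD47, LY9, FCRL5 and TNFRSF13B. In untreated cells it was the same except that SLAMF7 stood above CD38. Neighbours in the order overlapped between arrays for SLAMF7 and SDC1 in treated cells and for SDC1 and CD47 in untreated cells, and all other neighbours were apart. Array signal depends on the probes of each gene as well as on its RNA, so the order is one of signals and not of transcript numbers.

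**Figure D1:**
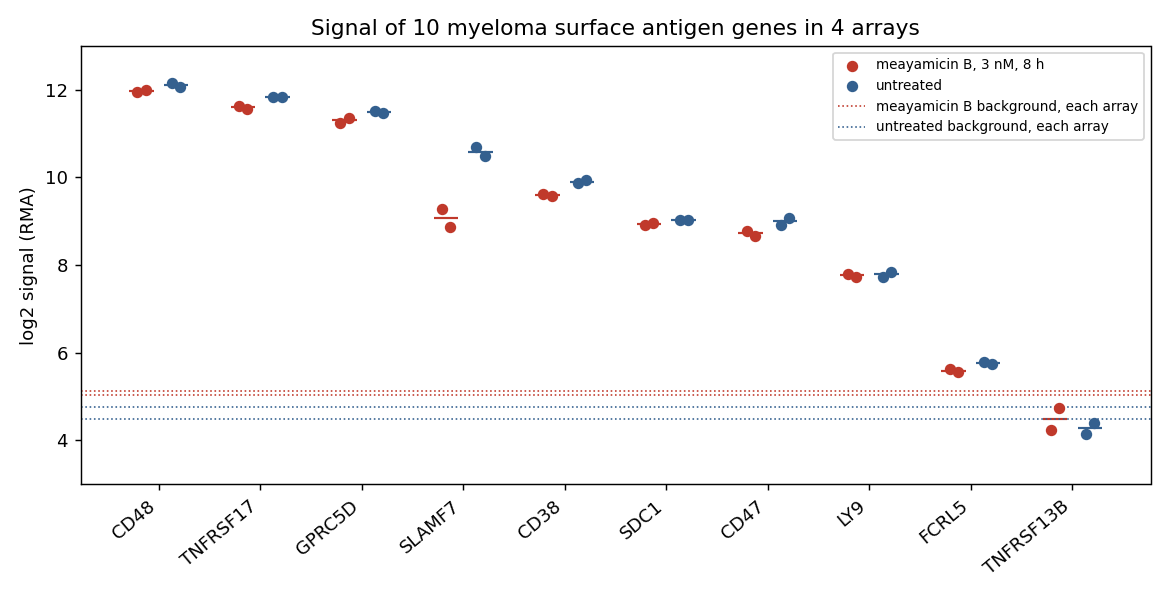
Log2 signal (RMA) of the 10 antigen genes on the vertical axis, ordered by their untreated mean, with 1 point per array, a bar at each mean of 2 arrays, meayamicin B in red left of untreated in blue, and dotted lines at each array's background. SLAMF7 is the gene whose groups lie farthest apart, with treated means of 9.08 against 10.59 untreated, and TNFRSF13B lies below the background of its own array in every case.

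SLAMF7 had the lowest log2 difference of the 10 antigen genes, and it was the one that passed a test, in 1 of 2 fits. It encodes a receptor of the signalling lymphocytic activation molecule (SLAM) family, is carried by plasma cells and natural killer cells, and is the target of elotuzumab. Its signal was 9.29 and 8.86 in treated cells, against 10.69 and 10.49 in untreated cells. Both treated arrays lay below both untreated arrays, and the closest pair of arrays was -1.21 apart. The log2 difference was -1.52 (SE 0.22, 95% confidence interval -2.03 to -0.998 in limma), a 2.86-fold lower signal. It was -1.40 between the replicate 1 arrays and -1.63 between the replicate 2 arrays. The gene lies on chromosome 1 at 160739057 to 160754821 (GRCh38.p14).

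The call for SLAMF7 depended on how the spread was modelled. In limma's default fit, in which all rows share a single prior variance, the p adjusted over 135750 rows was 0.0985, with an unadjusted limma p of 0.000216. In a second limma fit, in which the prior follows the signal level and is robust to outlying rows (the trended fit), the adjusted p was 0.00243. The default limma fit called 0 of the 10 antigen genes and 0.0327% of all genes. The trended limma fit called 1 of the 10, SLAMF7, and 3.15% of all genes. At an unadjusted p under 0.05, 1 of the 10 passed in the default fit, against 13.6% of all genes, and 3 of the 10 in the trended fit, against 16%. Among the 14296 genes above background, the trended fit called 6.53% lower and 0.727% higher, and 99 genes had a lower log2 difference than SLAMF7, or 0.693%. Separate cultures are not mentioned in the labels, so the p-values here cover the spread between arrays alone, which may be technical.

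The other 8 antigen genes above background had log2 differences between -0.30 and -0.025, and 0 of them passed the threshold in either fit. Their limma adjusted p-values lay between 0.690 and 0.986 in the default fit and between 0.288 and 0.983 in the trended fit. The 95% confidence intervals of the default fit reached -0.74 at the lowest and 0.41 at the highest, so the lowest bound, that of CD38, allowed a signal 1.66-fold lower. The median over the 9 genes was -0.19, and -0.18 without SLAMF7, against -0.089 over all 14296 genes above background. All 9 had a difference under 0, as did 60.8% of all genes above background. In 8 of the 9 genes both treated arrays lay below both untreated arrays, and this held for 39.5% of all genes above background, with 18.9% higher without overlap. The small differences moved with the scaling of the arrays: after a second quantile normalization 7 of the 9 were lower without overlap and LY9 was higher without overlap, at 0.091, against 34.2% lower and 24.6% higher without overlap over all genes above background under that scaling.

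**Figure D2:**
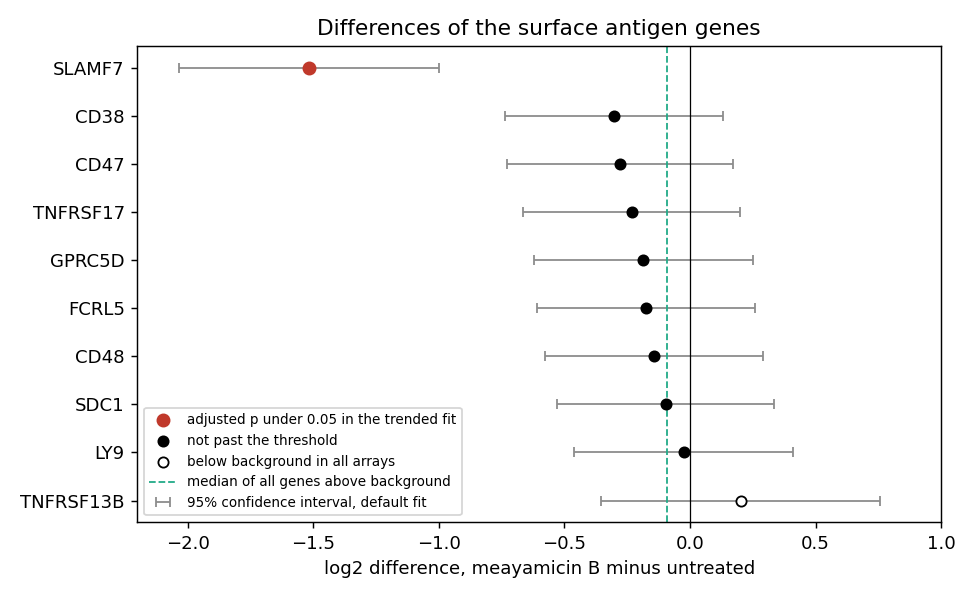
Log2 difference of each antigen gene, meayamicin B minus untreated, on the horizontal axis, with 95% confidence intervals of the default fit (2 arrays per group) as bars and the median of all genes above background as a dashed line. The interval of SLAMF7, from -2.03 to -0.998, lies apart from those of the other 9 genes, the lowest of which reaches -0.74.

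CD38 and CD47 had the lowest differences after SLAMF7, and the 250 bases before their start sites are shown as the promoters of these genes. The RefSeq table held such sequence for 7 of the 10 genes, with 8 start sites, and SLAMF7, LY9 and TNFRSF17 had no entry. The E-box letters CACGTG, the GC box letters GGGCGG, the TATA box letters TATAAA and the CCAAT box were searched on both strands, and matches are in capitals. CD38 lies on the plus strand (chr4:15778078-15778327) and CD47 on the minus strand (chr3:108091032-108091281), both GRCh38.p14 and both written 5′ to 3′.
CD38: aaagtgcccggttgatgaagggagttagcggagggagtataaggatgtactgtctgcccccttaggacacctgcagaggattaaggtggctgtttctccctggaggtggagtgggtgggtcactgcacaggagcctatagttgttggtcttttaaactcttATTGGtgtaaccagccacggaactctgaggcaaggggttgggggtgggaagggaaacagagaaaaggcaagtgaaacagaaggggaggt
CD47: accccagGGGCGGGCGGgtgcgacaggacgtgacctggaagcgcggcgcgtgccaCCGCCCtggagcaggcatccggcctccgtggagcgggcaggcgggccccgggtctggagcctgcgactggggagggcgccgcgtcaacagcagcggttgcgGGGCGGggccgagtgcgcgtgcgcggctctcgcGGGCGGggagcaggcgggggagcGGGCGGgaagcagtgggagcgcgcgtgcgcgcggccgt
The CD38 promoter held CCAAT, as did 3 of the 8 start sites and 11240 of all 35116 promoters. The CD47 promoter held GGGCGG at several places, some of them overlapping, and 42.6% of all promoters held it at least once. CACGTG was found at 0 of the 8 start sites, against 6.34% of all promoters, and TATAAA at 1, that of GPRC5D, against 10.7%. The share of G and C was 52.4% before CD38 and 79.6% before CD47, with a median of 58.0% over all promoters. Binding to these promoters was not measured.

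Among the receptors of the tumour necrosis factor receptor family, TNFRSF17 encodes BCMA, which binds APRIL and BAFF, supports the survival of plasma cells and is the target of engineered T cells and bispecific antibodies. Its signal was 11.64 and 11.56 in treated cells, against 11.83 and 11.84 in untreated cells. The groups did not overlap, but their distance was small, with a log2 difference of -0.23 (SE 0.18, 95% confidence interval -0.66 to 0.20). In the trended fit its interval was -0.40 to -0.059 and its unadjusted p 0.0136, while its limma adjusted p was 0.288. TNFRSF17 lies on chromosome 16 at 11965210 to 11968068. TNFRSF13B, which encodes TACI, a related receptor for the same ligands, was at 4.23 and 4.73 in treated cells, against 4.15 and 4.41 in untreated cells. All 4 values were under the background of their own array, so no fold is given for it.

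The ligands of both receptors, TNFSF13 (APRIL) and TNFSF13B (BAFF), were below background in all 4 arrays. Gamma-secretase, the membrane protease that sheds BCMA from the cell surface, had 5 measured subunits, all above background, and 0 passed in either fit. Among all genes above background, 6.53% were called lower and 0.727% higher in the trended fit. Of these subunits, NCSTN, the nicastrin subunit, was described first. NCSTN had the lowest difference of the 5, at 8.40 and 8.44 in treated cells, against 8.95 and 8.96 in untreated cells. Its log2 difference was -0.54 (SE 0.18), with a limma adjusted p of 0.0950 in the trended fit. APH1B had a difference of -0.24, PSENEN -0.037 and PSEN2, a catalytic subunit, 0.15.

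CD48 and LY9 belong to the SLAM family with SLAMF7, and the 3 genes are neighbours on chromosome 1. CD48, which encodes a lipid-anchored ligand of the receptor CD244, lies at 160678746 to 160711822, and 27.2 kb separate it from SLAMF7. LY9, which encodes the homophilic receptor CD229, lies at 160796174 to 160828255, at 41.4 kb on the other side. LY9 signals were 7.80 and 7.73 in treated cells, against 7.74 and 7.84 in untreated cells, so its groups overlapped. Its log2 difference was -0.025 (95% confidence interval -0.46 to 0.41), and that of CD48 was -0.14 (-0.58 to 0.29). Neither passed in either fit. The other SLAM receptors, among them SLAMF1, SLAMF6, CD84 and CD244, and the adaptors SH2D1A and SH2D1B were below background in all 4 arrays, 8 of 8 measured genes. Within 200 kb on each side of SLAMF7, 9 genes had a row, and 3 were above background, namely CD48, SLAMF7 and LY9.

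The difference between SLAMF7 and its relatives was also taken within each array, where any shift of a whole array cancels. SLAMF7 minus LY9 was 1.49 and 1.13 in treated cells, against 2.95 and 2.65 in untreated cells. SLAMF7 minus CD48 was -2.66 and -3.13 in treated cells, against -1.47 and -1.58 in untreated cells. Against the 8 other antigen genes above background the change ranged from -1.49 (LY9) to -1.21 (CD38). These differences share the values of SLAMF7, which was taken for its low difference, so they are a description and carry no test. SLAMF7 stood below CD38 in treated cells, with differences of -0.34 and -0.71, and above it in untreated cells, with differences of 0.81 and 0.56.

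**Figure D3:**
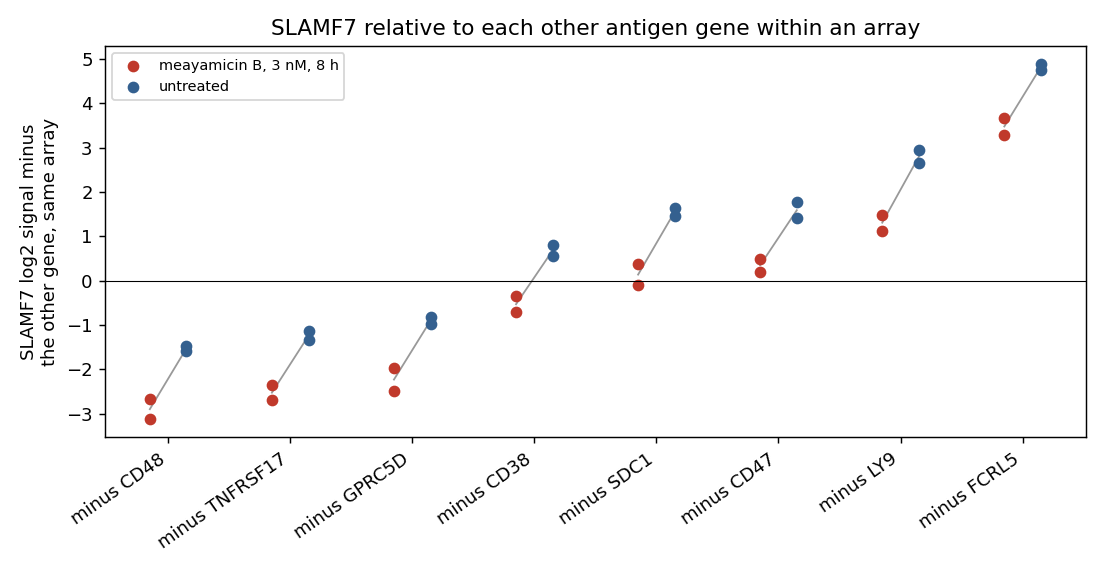
SLAMF7 log2 signal minus that of each other antigen gene on the same array, 1 point per array, meayamicin B in red left of untreated in blue, with a line between the group means. The differences share the SLAMF7 values, and their group means differ by -1.21 to -1.49. Against CD38 the treated points lie below 0 and the untreated points above it.

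CD38, an ectoenzyme that degrades NAD and the target of daratumumab, had the next lowest difference. Its signal was 9.63 and 9.58 in treated cells, against 9.88 and 9.94 in untreated cells, without overlap. The log2 difference was -0.30 (SE 0.18, 95% confidence interval -0.74 to 0.13), with a limma adjusted p of 0.334 in the trended fit. CD38 lies on chromosome 4 at 15778328 to 15853232 and is the longest of the 10 genes, at 74.9 kb. Of 5 relatives and partners of CD38 measured, 3 were above background and 2 fell in the trended fit. That fit called 6.53% of all genes above background lower. PECAM1, which encodes CD31, the counter-receptor of CD38, was at 8.51 and 8.28 in treated cells, against 9.61 and 9.74 in untreated cells. It was 2.43-fold lower (log2 difference -1.28, SE 0.20, limma adjusted p = 0.00305 in the trended fit). NT5E, which encodes the ectoenzyme CD73, was at 6.41 and 6.45 in treated cells, against 7.43 and 7.26 in untreated cells, a difference of -0.91 (SE 0.19, limma adjusted p = 0.0394 in the trended fit). The call for NT5E was lost when any 1 of the 4 arrays was left out (adjusted p between 0.106 and 0.207 in limma), and that for PECAM1 was kept (0.00371 to 0.0211). ENPP1, another ectoenzyme, was above background in untreated cells and below it in both treated arrays, at least 1.01-fold lower, and did not pass (adjusted p = 0.126 in the trended limma fit). BST1 and ENTPD1 were below background in all 4 arrays.

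SDC1, GPRC5D and FCRL5 differed little. SDC1 encodes syndecan-1 (CD138), the heparan sulfate proteoglycan by which plasma cells are identified, and lies on chromosome 2 at 20200797 to 20225475. Its signal was 8.91 and 8.96 in treated cells, against 9.04 and 9.03 in untreated cells. The log2 difference was -0.097 (95% confidence interval -0.53 to 0.33), and 0.010 after a second quantile normalization. Of 12 genes of other syndecans, heparan sulfate synthesis and shedding measured, 8 were above background. In the brightest row of each, differences lay between -0.37 (NDST1, a heparan sulfate sulfotransferase) and 0.36 (SDC2), and 0 passed in either fit. The trended fit called 6.53% of all genes above background lower and 0.727% higher. EXT2, a heparan sulfate polymerase, was at -0.24, and MMP9, at the upper end of the list, was below background in all arrays. EXT1 was at 0.11 in its brightest row. A second, dimmer EXT1 row was at 5.49 and 4.63 in treated cells, against 5.58 and 6.42 in untreated cells. That row had a log2 difference of -0.93 and did not pass in either fit.

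GPRC5D encodes an orphan G protein-coupled receptor of plasma cells, the target of talquetamab, and lies on chromosome 12 at 12940575 to 12952170. Its signal was 11.25 and 11.35 in treated cells, against 11.52 and 11.46 in untreated cells, a log2 difference of -0.19 (95% confidence interval -0.62 to 0.25). Of the other GPRC5 genes with a row of their own, GPRC5B was above background in untreated cells and not in treated cells, with a difference of 0.018, and GPRC5C was below it throughout.

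FCRL5 encodes an Fc receptor-like protein that is a target of bispecific antibodies, and lies on chromosome 1 at 157513377 to 157552515. It was the dimmest antigen gene above background, at 5.62 and 5.57 in treated cells, against 5.79 and 5.74 in untreated cells. The treated values were 0.60 and 0.44 above their own background and the untreated values 1.30 and 0.99 above theirs, so its difference of -0.17 (95% confidence interval -0.61 to 0.26) was measured close to the background. At the 99th percentile the background was 6.18 and 6.52 in treated arrays, and 5.63 and 5.72 in untreated arrays. FCRL5 exceeded that background in the untreated arrays alone. Of the 7 other Fc receptor-like genes, 5 were above background and 1 rose in the trended fit, FCRL3, a receptor of B and T lymphocytes. That fit called 0.727% of all genes above background higher. FCRL3 was at 6.56 and 6.35 in treated cells, against 5.19 and 4.91 in untreated cells, a 2.66-fold higher signal (log2 difference 1.41, SE 0.20, limma adjusted p = 0.0151 in the trended fit). The call for FCRL3 was lost without treated replicate 1 (adjusted p = 0.0709 in limma) and without untreated replicate 2 (0.0915), and its untreated values lay near a background that was itself higher in treated cells, whose part in the result was not tested. FCRL6 had a difference of 0.39 and FCRLA -0.057, while FCRL2 (-0.86) was above background in 1 array alone.

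CD47 encodes the membrane protein that binds SIRPA on macrophages and inhibits phagocytosis, and lies on chromosome 3 at 108043091 to 108091031. Its signal was 8.79 and 8.66 in treated cells, against 8.92 and 9.08 in untreated cells. The log2 difference was -0.28 (SE 0.19, 95% confidence interval -0.73 to 0.17), with -0.13 between the replicate 1 arrays and -0.42 between the replicate 2 arrays. QPCTL, the enzyme that modifies the SIRPA-binding end of CD47, was at 6.84 and 6.96 in treated cells, against 6.81 and 7.54 in untreated cells, and did not pass (log2 difference -0.28). SIRPA itself was above background in untreated cells alone, at least 1.02-fold lower in treated cells, and did not pass. THBS1 (0.17) was above background in 1 untreated array, and SIRPB1 in none. Complement regulators, which protect cells from lysis by complement, were represented by 3 genes, and 0 of them passed in either fit. Of all genes above background, the trended fit called 6.53% lower and 0.727% higher. CD59 had a log2 difference of -0.044, CD46 -0.014 and CD55 0.0040 (95% confidence interval of CD55 -0.43 to 0.44). A second CD46 row, near background, was at 4.91 and 5.22 in treated cells, against 4.56 and 3.95 in untreated cells. That row did not pass in either fit (log2 difference 0.81).

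Surface molecules of myeloma outside the 10 antigens were taken from a list of 30 genes, of which 28 had a row and 23 were above background. TFRC, the transferrin receptor, and SEMA4A, a semaphorin, fell in the trended fit, and 0 rose. Among all genes above background, 6.53% were called lower and 0.727% higher in that fit. TFRC was at 10.00 and 9.97 in treated cells, against 10.81 and 10.94 in untreated cells, 1.85-fold lower (log2 difference -0.89, SE 0.19, limma adjusted p = 0.00371 in the trended fit). A second, dimmer TFRC row was below background in all 4 arrays. SEMA4A was at 10.78 and 10.91 in treated cells, against 11.40 and 11.46 in untreated cells, a log2 difference of -0.58 (SE 0.19, limma adjusted p = 0.0140 in the trended fit). Its call was lost without treated replicate 1, untreated replicate 1 or untreated replicate 2 (adjusted p = 0.0506, 0.0530 and 0.103 in limma). At the upper end, CCR10, a chemokine receptor of plasma cells, had a difference of 0.50 and did not pass, and CD70 was below background throughout. The median of the 23 genes was 0.048.

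Over all 10 lists of partner, family and other surface genes, 77 of 82 genes had a row of their own and 50 were above background, with a median difference of -0.0070. In the trended limma fit 4 fell and 1 rose, and in the default limma fit 0 were called. Over all genes above background the trended fit called 6.53% lower and 0.727% higher. At an unadjusted p under 0.05 in the default limma fit were 15 of the 77, against 13.6% of all genes. Of the 8 plasma cell genes used to check the cell type, POU2AF1, a coactivator of B lineage transcription, fell (log2 difference -0.60, SE 0.20) and PRDM1, which encodes the plasma cell regulator Blimp-1, rose (0.45, SE 0.18), with trended limma adjusted p-values of 0.0487 and 0.0215. The PRDM1 call was lost when any 1 array was left out, and the POU2AF1 call was lost in 3 of the 4 cases, without treated replicate 2 or either untreated array. XBP1 had a difference of -0.29 and IRF4 0.16, and neither passed.

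**Figure D4:**
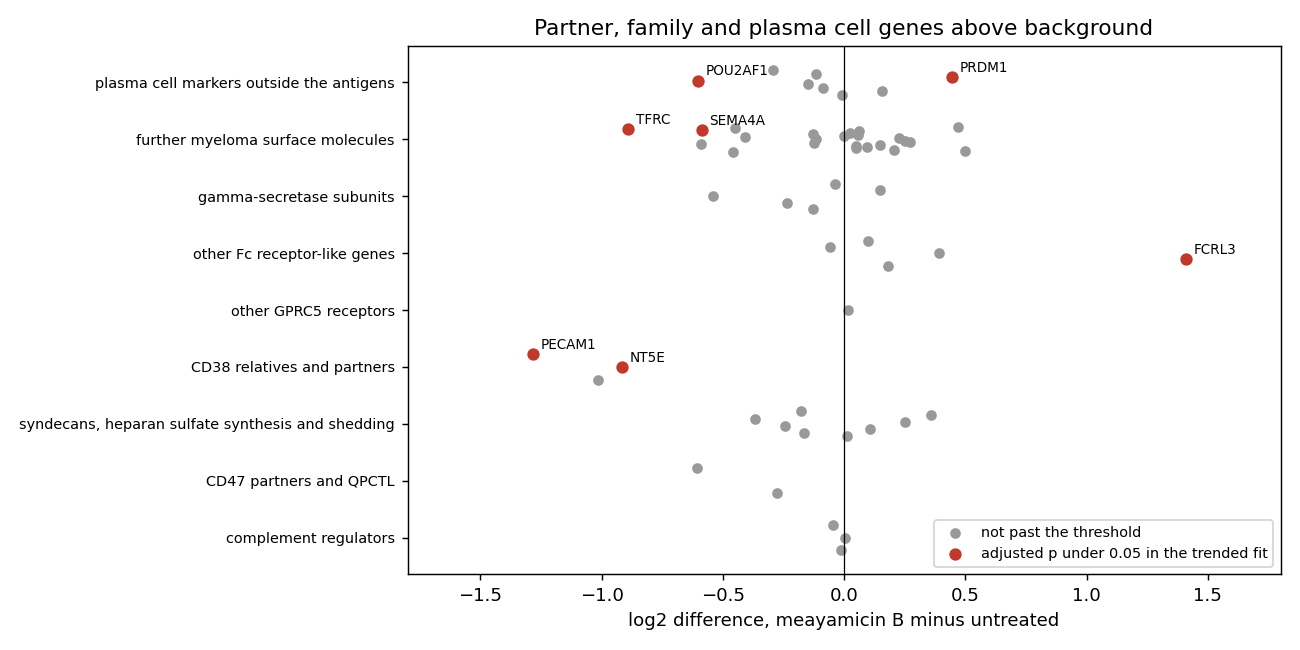
Log2 difference, meayamicin B minus untreated, on the horizontal axis, of partner, family, other surface and plasma cell genes above background, with 1 point per gene and 1 line per list. Red points passed an adjusted p of 0.05 in the trended limma fit: PECAM1, NT5E, TFRC, SEMA4A and POU2AF1 lie left of 0, and FCRL3 and PRDM1 right of it.

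The genes whose pattern over the 4 arrays was most like that of SLAMF7 were sought among 12398 genes above background in all 4 arrays, by the Euclidean distance between log2 profiles after each gene's mean was subtracted. The nearest were DAAM1 at a distance of 0.0773, TARS3 at 0.0938 and SFR1 at 0.105, each over 4 arrays. Their log2 differences were -1.47, -1.46 and -1.52. The distance contains the difference between the groups, so values near that of SLAMF7 follow from the selection. The likeness rests on 4 values a gene.

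The 10 genes were also set side by side by their structure in the RefSeq table. SLAMF7, at 15.8 kb, was the third shortest, and TNFRSF17, at 2.86 kb, was the shortest. RefSeq lists 10 mRNA isoforms for SLAMF7 and between 1 and 4 for each of the other 9. The array row summarises probes over the whole gene as 1 signal and does not tell these isoforms apart.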

How the data were processed

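The authors deposited log2 values after RMA in Transcriptome Analysis Console, with build hg38 named in the submitters' processing notes. RMA brings the distributions of the arrays close together, so a shift of all RNA would be largely removed. The deposited values were not fully equalised, with medians of 3.07 and 3.08 in treated arrays, against 3.04 and 3.03 in untreated arrays. Of 138745 rows, 2995 control rows were left out and 135750 were tested. A gene with several single-symbol rows was represented by its brightest row. Of 36176 single-symbol rows, 25516 matched the RefSeq table (GRCh38.p14), the source of coordinates and promoters. With 2 arrays in each group, precision is limited by that number.

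Both groups were compared on the log2 scale with limma 3.58.1 (R 4.3.3), with Benjamini-Hochberg adjustment over all tested rows and a threshold of 0.05. Differences, SEs and intervals come from the default fit unless the trended fit is named. Where no array of the dimmer group was above background, the fold is a bound against the background. Both fits were also run on simulated data with independent noise, its spread taken from the trended fit and without a replicate effect. That run therefore cannot rank the fits for these arrays.

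The antigen genes, the gene lists and both fits were chosen with earlier results of these data known. Genes named from a pathway list or the plasma cell list are those called in either fit and up to 2 at each end by moderated t. ENPP1, JCHAIN and MZB1 were named outside this rule. Other SLAM genes and markers of other cells were named after their values were seen. Alternatives changed 1 choice at a time: the replicate number as a block, the prior variance, removal of rows near background, quantile normalization of the deposited values, centring on 50 ribosomal protein genes, averaging a gene's rows, a background at the 99th percentile, and omission of each array.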

Additional observations from a re-analysis of the deposited data

How the results depend on the processing

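The count of antigen genes called was 0 in the default limma fit, and 1, SLAMF7, with the trended prior or with the filter on dim rows (log2 difference -1.52 in both, adjusted p = 0.00243 and 0.0206). The filter left 30594 rows to adjust over, and over all genes it raised the calls to 1096 from 11 in the default fit and to 2319 from 1059 in the trended fit. In the trended fit SLAMF7 passed in 9 of 9 alternatives that refitted it, and with the default prior the count was 0 (-1.52, adjusted p = 0.0985). Its difference lay between -1.73 and -1.31 when 1 array was left out, with trended limma adjusted p from 0.00199 to 0.0148. Without 1 array the default limma fit called 0 genes in all, with 3026 to 4100 at an unadjusted p under 0.05, and the trended fit called 276 to 848. The deviations of same-numbered arrays correlated weakly (r = 0.022 across rows, 0.096 across genes above background), which cannot decide whether the arrays were paired. Spike-in controls were higher on both replicate 1 arrays, and the part of this in the results was not tested. With the replicate block SLAMF7 was at -1.52 (limma adjusted p = 0.0830 in the default and 3.92e-07 in the trended fit), the counts of antigen genes stayed at 0 and 1, and the trended fit called 2168 genes. A second quantile normalization turned the sign of LY9 (0.091) and SDC1 (0.010), and with 1 array left out LY9 lay between -0.076 and 0.025 and TNFRSF13B between -0.047 and 0.45. The median of the 9 genes was -0.20 after centring, -0.18 after the second quantile normalization, and -0.20 to -0.16 without 1 array. The median over all genes above background was -0.099, -0.033 and -0.11 to -0.091 in those settings. NT5E and POU2AF1 were lost after the second quantile normalization (trended limma adjusted p = 0.0729 and 0.0640), and TFRC and POU2AF1 when rows were averaged (0.811 and 0.729), the second row of each being below background.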

Other observations

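Of the 34 measured markers of B, T, natural killer, monocyte and erythroid cells, 20 were not above background, 14 were, and 0 passed in either limma fit. The default fit called 0.0327% of all genes and the trended fit 3.15%. Beside CD3E, above background in every array, CD5 was above it in 3 of 4, at 5.17 and 5.22 in treated cells and 5.57 and 4.51 in untreated cells, and the other 6 T cell genes were below it in all 4. The B cell gene CD79B was at 7.55 and 7.40 in treated cells, against 7.44 and 7.55 in untreated cells. HBA1, a globin gene, was at 6.76 and 6.53 in treated cells, against 6.19 and 6.20 in untreated cells, and did not pass (log2 difference 0.45, SE 0.19). At an unadjusted p under 0.05, 5 of the 34 passed in the default limma fit and 5 in the trended fit, against 13.6% and 16% of all genes. The summed log2 signal of the 8 monocyte markers was 32.9 and 33.2 in treated cells, against 32.2 and 29.8 in untreated cells, with FCN1 above background in all 4 arrays, CSF1R in 3, CD14 in 1 and the other 5 in none. FCN1 was at 5.80 and 5.66 in treated cells, against 5.47 and 5.23 in untreated cells, without overlap, and did not pass. CSF1R went the other way, at 5.63 and 5.08 in treated cells, against 6.01 and 5.48 in untreated cells (log2 difference -0.40). The B cell sums were 40.1 and 38.1 treated, against 39.7 and 39.4 untreated. Those of T cell markers were 30.9 and 30.4, against 30.5 and 30.3. Natural killer sums were 23.1 and 23.6, against 23.1 and 23.9, and erythroid sums 19.6 and 18.6, against 18.4 and 18.3. For the 8 plasma cell genes the sums were 92.7 and 92.8 in treated cells, against 93.3 and 93.4 in untreated cells. The part of these signals in the results was not tested.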
